A study of Mus musculus with 4 samples.

Results

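The 44 genes described here encode the ligands, latent-complex proteins, secreted inhibitors, receptors, Smads and inhibitory regulators of transforming growth factor beta (TGF-β) and bone morphogenetic protein (BMP) signalling, together with the Id target genes. They were chosen by symbol, but with earlier results of these data known, and all 44 were among the 24442 genes of the count table. RNA was sequenced from Lgr6-positive and from Lgr6-negative cells sorted from mammary glands of 5-week-old female Lgr6-eGFP-CreErt2 mice, with 2 libraries per population. Lgr6 encodes a receptor for R-spondins, and both populations came from mice with the same reporter allele, which carries a green fluorescent protein and an inducible recombinase. The cells were taken from a lineage-negative gate. Its markers, how Lgr6-negative cells were gated, the number of animals behind a library and any dose of an inducer are not stated in the labels.

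TGF-β ligands are secreted in a latent form that is tied to the extracellular matrix by latent TGF-β binding proteins, and integrins or thrombospondin release them. An active ligand brings type II and type I receptor kinases together, and the type I receptor phosphorylates Smad2 and Smad3 (TGF-β and activin) or Smad1, Smad5 and Smad9 (BMP), which enter the nucleus with Smad4. In the mammary gland TGF-β is known as a brake on duct growth, and BMPs and activins take part in duct branching and bud formation.

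Libraries held between 6819127 and 7167465 counts and 11959 to 14144 detected genes. The precursor of ribosomal RNA, Rn45s, took 17.2% and 14.5% of the counts in Lgr6-positive and 18.7% and 30.8% in Lgr6-negative libraries. Lgr6 itself had 172 and 655 counts in Lgr6-positive libraries, against 3 and 10 in Lgr6-negative libraries, so the order followed the labels, although its adjusted p of 0.0510 missed the threshold. The summed level of 12 leukocyte markers was 2043 and 2509.8 CPM (counts per 1000000 of the library size after TMM scaling) in Lgr6-positive libraries, against 31239 and 36571 CPM in Lgr6-negative libraries. In Lgr6-positive libraries 10 luminal markers summed to 5809 and 5870.1 CPM, against 166 and 177 CPM in Lgr6-negative libraries, and 8 basal markers to 2065 and 2250.4 CPM, against 242 and 219.5 CPM. For 8 fibroblast markers the sums were 739 and 539 CPM against 37.6 and 46.8 CPM, and for 7 endothelial markers 1224 and 1485 CPM against 175 and 119 CPM. Among 5 pericyte markers the sums were 315 and 134 CPM against 1.09 and 18.5 CPM. The fibroblast genes Pdgfra and Col6a2 were at 0 counts in both Lgr6-negative libraries, as were the haemoglobin genes Hba-a2 and Hbb-bs. A red-cell list of 6 genes summed to 651 and 598 CPM against 18.4 and 3.91 CPM, and its member Slc4a1 was at 0 in all libraries. Of 5 adipocyte markers, Cidec and Lep were at 0 in all libraries, and Adipoq and Plin1 in both Lgr6-negative libraries. The 5 summed to 124 and 109.9 CPM against 13.6 and 41.1 CPM. Most of these sums came from Fabp4, at 122 and 94.1 CPM against 13.6 and 41.1 CPM. It was the only 1 of the 5 that was tested, and it did not pass. Past the threshold, 8 luminal, 4 basal, 4 fibroblast, 4 endothelial, 4 red-cell and 1 pericyte marker were higher, and 10 leukocyte markers were lower. The fibroblast gene Dpt and the endothelial gene Cldn5 had overlapping libraries. Of the leukocyte sums, Lyz2 alone made up 1040.3 and 1369.6 CPM against 16972 and 18367 CPM. By its sums, the leukocyte list ran opposite to the other 7 lists, and its part in the results below, like that of the other lists, was not tested. In bulk samples, fewer cells of a type and less RNA per cell cannot be told apart.

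RNA levels of the TGF-β isoform gene Tgfb3 and of the activin subunit gene Inhbb were higher in Lgr6-positive libraries. So were those of the latent TGF-β binding protein genes Ltbp1 and Ltbp3 and of the receptor genes Bmpr1a and Tgfbr3. The TGF-β isoform gene Tgfb1 and the target gene Id2 had lower RNA levels there. Of the 44 genes, 35 passed the filter on low counts, and 6 of these were higher, 2 were lower and 27 did not pass at an adjusted p under 0.05 (edgeR's quasi-likelihood test, Benjamini-Hochberg adjustment over all genes tested). Over all 11661 genes tested 9.06% were called, 4.49% as higher and 4.57% as lower, while the called share of the 35 was 22.9%. The median log2 fold change (Lgr6-positive over Lgr6-negative, throughout) was 1.63 over the 35 and 0.10 over all genes tested. Positive values were found for 24 of the 35 (68.6%) and for 52.3% of all genes tested. A gene can pass the filter through 1 population alone, so these shares describe the 35 and not the 44. With scaling by library size alone, which added a median of 0.45 to the log2 fold changes, 8 of the 35 were higher and 0 lower, and 65.8% of all calls were higher, against 49.6% as reported. Replicates may be technical, as nothing in the labels says that they came from separate mice, and the p-values cover the spread between these 4 libraries only.

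**Figure D1:**
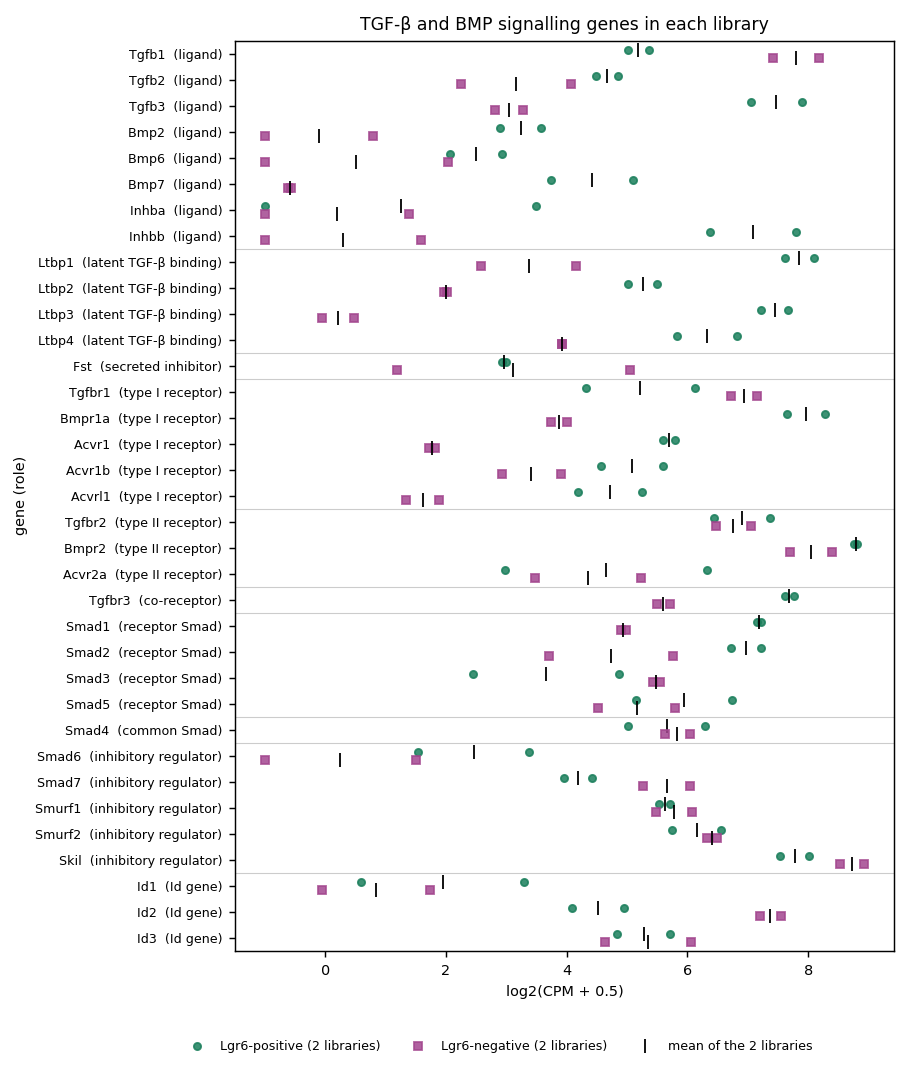
Level of the 35 tested genes in each library, as log2(CPM + 0.5), ordered by role, with Lgr6-positive libraries as circles, Lgr6-negative libraries as squares and a bar at the mean of each pair. Circles lie to the right of squares for Tgfb3, Inhbb, all 4 Ltbp genes and Bmpr1a, and to the left for Tgfb1, Id2 and Skil.

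The libraries of the populations did not overlap for 25 of the 35 genes. In 19 of them both Lgr6-positive libraries lay above both Lgr6-negative libraries, and in 6 below, where 30.0% and 25.9% of all genes tested were separated in these directions. All 8 called genes were among the 25. The 6 genes that lay below were Tgfb1, Tgfbr1, Smad3, Smad7, Skil and Id2, where the separation of Skil depends on the TMM scaling.

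The starts of called genes are shown because genes moved in both directions. RefSeq promoter windows (GRCm38.p6, 250 bases before to 50 after a start) were matched for 6 of the 8 called genes, and the 5 with a single window are printed 5′ to 3′ on the strand of the gene. They are those of Bmpr1a (chr14:34502497-34502796, minus strand), Inhbb (chr1:119422199-119422498, minus strand), Ltbp3 (chr19:5740650-5740949, plus strand), Tgfb1 (chr7:25686752-25687051, plus strand) and Id2 (chr12:25096043-25096342, minus strand). Capitals mark GGCGCC, a GC-rich sequence known to be bound by BMP-activated Smads, and CAGAC or its reverse complement GTCTG, the core of the Smad-binding CAGA box. Both strands were searched, and the marked motifs do not overlap each other.
Bmpr1a: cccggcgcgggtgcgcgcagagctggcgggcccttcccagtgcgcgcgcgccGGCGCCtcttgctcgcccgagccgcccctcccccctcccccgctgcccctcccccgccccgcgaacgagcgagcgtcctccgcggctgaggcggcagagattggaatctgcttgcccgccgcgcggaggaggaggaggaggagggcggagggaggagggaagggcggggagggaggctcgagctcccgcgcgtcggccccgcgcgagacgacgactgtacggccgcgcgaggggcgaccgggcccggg
Inhbb: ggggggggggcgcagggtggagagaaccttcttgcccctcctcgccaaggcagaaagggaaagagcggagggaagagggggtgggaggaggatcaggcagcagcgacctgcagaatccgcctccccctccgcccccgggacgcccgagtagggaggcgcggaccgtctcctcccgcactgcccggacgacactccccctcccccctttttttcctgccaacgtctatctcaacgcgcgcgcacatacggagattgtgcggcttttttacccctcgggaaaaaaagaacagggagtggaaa
Ltbp3: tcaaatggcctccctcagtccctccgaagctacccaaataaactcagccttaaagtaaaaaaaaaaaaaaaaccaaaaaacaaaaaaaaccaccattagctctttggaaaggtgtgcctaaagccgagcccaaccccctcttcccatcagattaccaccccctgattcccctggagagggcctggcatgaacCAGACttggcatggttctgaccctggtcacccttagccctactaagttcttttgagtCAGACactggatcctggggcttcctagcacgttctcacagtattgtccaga
Tgfb1: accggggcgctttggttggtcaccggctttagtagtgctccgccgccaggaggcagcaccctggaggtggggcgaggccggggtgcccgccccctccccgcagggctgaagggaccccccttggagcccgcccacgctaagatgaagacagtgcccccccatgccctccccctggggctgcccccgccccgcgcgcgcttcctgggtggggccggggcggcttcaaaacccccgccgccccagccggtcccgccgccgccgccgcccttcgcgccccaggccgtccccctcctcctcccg
Id2: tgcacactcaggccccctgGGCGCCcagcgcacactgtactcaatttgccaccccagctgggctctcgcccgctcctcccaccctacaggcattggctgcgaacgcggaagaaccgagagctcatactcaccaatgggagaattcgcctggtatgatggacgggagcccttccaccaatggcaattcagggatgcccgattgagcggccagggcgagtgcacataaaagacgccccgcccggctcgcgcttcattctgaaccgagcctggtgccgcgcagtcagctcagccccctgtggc
GGCGCC occurred once each in the windows of Bmpr1a, which was higher, and Id2, which was lower. CAGAC occurred 2 times in the window of Ltbp3. Neither motif was found in the windows of Inhbb and Tgfb1. Of all 32851 promoter windows, 11.9% held GGCGCC and 49.6% held CAGAC. Among 40 windows of 32 of the 44 genes, 35.0% held GGCGCC and 47.5% held CAGAC. A match says only that the letters are there, and the windows were not compared for base composition.

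The TGF-β ligands differed by isoform. Tgfb3, on chromosome 12 from 86056745 to 86079041 (GRCm38, minus strand), had 1078 and 1875 counts in Lgr6-positive libraries, against 42 and 52 counts in Lgr6-negative libraries. This was 185 ± 74.5 CPM against 7.90 ± 1.90 CPM (mean ± SD, n = 2 libraries per population, as for all such values), a log2 fold change of 4.55 (standard error 0.71, adjusted p = 0.00585). Both Lgr6-positive libraries were far above both others, and the call held under all 12 alternative settings, although exons of 2 gene models cover 12.4% of its exonic bases and the counts may be shared with them. Tgfb1, the isoform best known for its action on immune cells, ran the other way. It had 260 and 320 counts in Lgr6-positive libraries, against 1087 and 1621 counts in Lgr6-negative libraries. The means were 36.2 ± 6.13 CPM against 229 ± 83.8 CPM, and the gene (chromosome 7, 25687002 to 25705077, plus strand, the start of which is printed above) fell by 2.66 on the log2 scale (standard error 0.57, adjusted p = 0.0220). That call did not hold without Lgr6-negative replicate 2 (adjusted p = 0.123) and with scaling by library size alone (0.0537), within a range from 4.09e-04. Tgfb2 had 232 and 174 counts in Lgr6-positive libraries, against 105 and 24 in Lgr6-negative libraries. Its libraries did not overlap, but the log2 fold change of 1.29 (standard error 1.34, adjusted p = 0.644) was no larger than its error.

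Within a library, the ratio of Tgfb3 to Tgfb1 per exonic length does not depend on how libraries are scaled. It was 6.18 and 8.73 in Lgr6-positive libraries, against 0.0576 and 0.0478 in Lgr6-negative libraries. Of the length-corrected counts of the 3 TGF-β isoforms, Tgfb3 thus made up 77.7% and 85.6% in Lgr6-positive libraries, against 5.04% and 4.51% in Lgr6-negative libraries. Tgfb1 made up 12.6% and 9.80% against 87.6% and 94.3%. The leading isoform differed between the populations in every library, and Tgfb2 stayed under 10% in each. These ratios were formed after the counts had been seen and carry no test. The leukocyte markers, at 31239 and 36571 CPM in the libraries where Tgfb1 led, were at 2043 and 2509.8 CPM where Tgfb3 led. Every gene lower in Lgr6-positive libraries shares this order, as there is no further population, and a link was not tested.

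**Figure D2:**
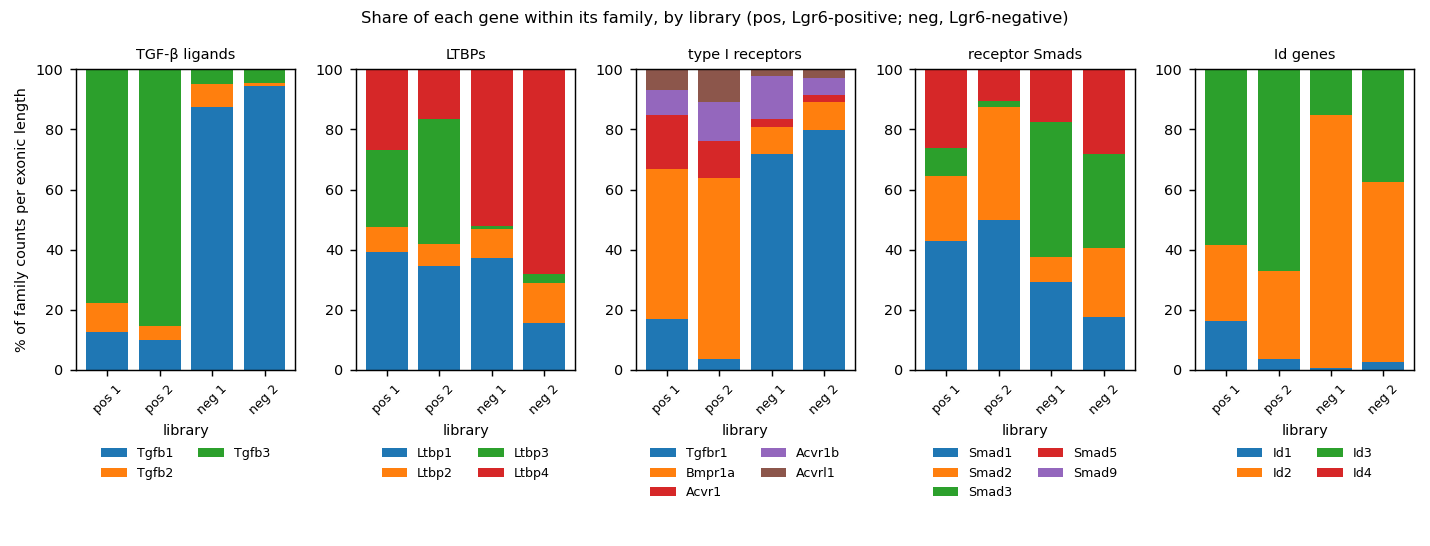
Share of each gene in the length-corrected counts of its family, in percent, for each of the 4 libraries, with Lgr6-positive libraries on the left of each panel. Tgfb3 fills 77.7% and 85.6% of the TGF-β ligand bar in Lgr6-positive libraries and Tgfb1 fills 87.6% and 94.3% in Lgr6-negative libraries.

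Among the activin subunits, Inhbb, which forms activin B, was higher. It had 669 and 1760 counts in Lgr6-positive libraries, against 0 and 14 counts in Lgr6-negative libraries. The levels were 153 ± 99.7 CPM against 1.24 ± 1.76 CPM, with a log2 fold change of 6.94 (standard error 1.48, adjusted p = 0.0220). All Lgr6-negative counts came from replicate 2. The fitted value without that library, 13.16, is therefore set by the fit and not by a measured level, and the other alternatives ran from 5.92 upwards and all passed. Inhbb spans bases 119415465 to 119422248 of chromosome 1 on the minus strand. Inhba, which forms activin A, had counts in 1 library of each population, 88 and 0 in Lgr6-positive against 0 and 12 in Lgr6-negative libraries, and gave no call (log2 fold change 2.33, standard error 2.74, adjusted p = 0.693).

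The 5 BMP ligand genes among the 44, Bmp2 and Bmp4 to Bmp7, did not exceed 33.8 CPM in any library. Bmp7, which signals in epithelial buds, had 276 and 101 counts in Lgr6-positive libraries, against 1 and 1 in Lgr6-negative libraries. The ratio of the levels was 141, with a 95% counting interval from 38.9 to 1172 that covers counting error only, and the adjusted p of 0.0636 missed the threshold. Bmp7 passed under 5 of the 12 alternatives, within a range from 4.72e-04 to 0.204. Bmp2, a growth factor of bone and of epithelial branching, had 93 and 55 counts in Lgr6-positive libraries, against 0 and 7 in Lgr6-negative libraries (log2 fold change 3.86, standard error 2.30, adjusted p = 0.363). Bmp6 had 58 and 29 counts against 23 and 0 (log2 fold change 1.57, standard error 2.23, adjusted p = 0.755). Both had non-overlapping libraries, Bmp6 by a few counts, and neither passed. Bmp4, with 63 and 10 counts in Lgr6-positive libraries against 0 and 7 in Lgr6-negative libraries, and Bmp5, with 18 and 0 against 0 and 0, did not reach the filter. Exons of another gene model cover 46.7% of the exonic bases of Bmp5.

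Genes of latent TGF-β binding proteins had positive fold changes in all 4 cases, and their libraries did not overlap. Both Lgr6-positive libraries lay above both others for 30.0% of all genes tested. Ltbp3 had 1219 and 1597 counts in Lgr6-positive libraries, against 3 and 5 counts in Lgr6-negative libraries. At 176 ± 37.4 CPM against 0.678 ± 0.297 CPM it had the smallest adjusted p of the 35 genes (log2 fold change 7.99, standard error 0.87, adjusted p = 0.00132). It lies on chromosome 19 from 5740904 to 5758532 on the plus strand, and its window with 2 CAGAC motifs is printed above. Ltbp1, which binds latent TGF-β to fibrillin-rich matrix, had 2218 and 1548 counts in Lgr6-positive libraries, against 111 and 31 in Lgr6-negative libraries. It averaged 234 ± 53.6 CPM against 11.4 ± 8.35 CPM (log2 fold change 4.35, standard error 0.74, adjusted p = 0.00863) and lies on chromosome 17 from 75005568 to 75392512. Both calls held under the 12 alternatives.

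Ltbp4 did not pass, with 922 and 447 counts in Lgr6-positive libraries against 94 and 82 in Lgr6-negative libraries (log2 fold change 2.54, standard error 0.87, adjusted p = 0.106). Ltbp2, a matrix protein that does not bind latent TGF-β, had 364 and 252 counts against 22 and 20 (log2 fold change 3.45, standard error 1.27, adjusted p = 0.126). In DESeq2 both passed. Within the family, Ltbp3 made up 25.4% and 41.8% of the length-corrected counts in Lgr6-positive libraries, against 1.18% and 2.97% in Lgr6-negative libraries. Ltbp4 made up 27.0% and 16.4% against 52.0% and 68.3%. Fibroblast markers summed to 739 and 539 CPM against 37.6 and 46.8 CPM in the same libraries. Luminal markers summed to 5809 and 5870.1 CPM against 166 and 177 CPM. Of the marker lists only the leukocyte list ran the other way, and a link of any list to the Ltbp genes was not tested.

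The 4 secreted inhibitors among the 44 had few counts. Fst encodes follistatin, which binds activins, and had 61 and 56 counts in Lgr6-positive libraries, against 209 and 10 in Lgr6-negative libraries. The fitted log2 fold change, -1.24 (standard error 1.70, adjusted p = 0.745), turned to 2.01 without Lgr6-negative replicate 1. The BMP antagonist genes Chrd, Nog and Grem1 stayed below the filter. Chrd had 0 and 0 counts in Lgr6-positive and 1 and 0 in Lgr6-negative libraries, Nog 3 and 0 against 0 and 0, and Grem1 8 and 0 against 0 and 0. A count of 0 allows up to 3 counts, or 0.368 and 0.380 CPM in the Lgr6-positive and 0.468 and 0.533 CPM in the Lgr6-negative libraries, so lower levels were not detectable at this depth.

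Of 9 tested receptor genes, 2 were higher, 0 were lower and 7 did not pass. Over all genes tested, 4.49% were higher and 4.57% lower, so few lower genes would be looked for among 9. The count of lower receptor genes was also 0 at an unadjusted p under 0.05, in DESeq2 and in limma-voom. Bmpr1a encodes a type I receptor for BMPs and had 1628 and 2458 counts in Lgr6-positive libraries, against 83 and 88 in Lgr6-negative libraries. It averaged 256 ± 79.1 CPM against 14.3 ± 1.90 CPM (log2 fold change 4.16, standard error 0.59, adjusted p = 0.00394), a call held under all 12 alternatives. Its gene lies on chromosome 14 from 34410734 to 34503341 on the minus strand. Tgfbr3, or betaglycan, is a co-receptor that presents TGF-β2 and inhibin. It had 1758 and 1544 counts in Lgr6-positive libraries, against 286 and 291 in Lgr6-negative libraries, or 206 ± 14.1 CPM against 48.2 ± 5.02 CPM (log2 fold change 2.09, standard error 0.53, adjusted p = 0.0417). The replicates were close in both populations, but the call did not hold without Lgr6-negative replicate 1 (0.116) or 2 (0.0846). Tgfbr3 lies on chromosome 5 from 107106570 to 107289629.

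The other type I receptors did not pass. Acvr1, which serves BMPs, had 449 and 378 counts in Lgr6-positive libraries, against 18 and 17 in Lgr6-negative libraries (log2 fold change 4.13, standard error 1.17, adjusted p = 0.0626), and it passed under 4 of 12 alternatives. Acvrl1, or ALK1, a receptor known from endothelium, had 145 and 295 counts against 13 and 18 (log2 fold change 3.39, standard error 1.5, adjusted p = 0.200). Endothelial markers were at 1224 and 1485 CPM against 175 and 119 CPM in these libraries. All other marker lists except the leukocyte list were also higher there, and a link to Acvrl1 was not tested. Acvr1b, the activin type I receptor, had 189 and 376 counts in Lgr6-positive libraries, against 93 and 40 in Lgr6-negative libraries (log2 fold change 1.71, standard error 1.18, adjusted p = 0.443). Tgfbr1, the TGF-β type I receptor, was the member of this class with a negative value. It had 564 and 154 counts in Lgr6-positive libraries, against 676 and 795 in Lgr6-negative libraries, or 44.3 ± 35.1 CPM against 123 ± 25.3 CPM (log2 fold change -1.48, standard error 0.76, adjusted p = 0.279). It passed without Lgr6-positive replicate 1 (adjusted p = 0.0352, log2 fold change -2.66). Bmpr1b had no counts in any library.

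Per exonic length, the ratio of Bmpr1a to Tgfbr1 was 2.97 and 16.4 in Lgr6-positive libraries, against 0.126 and 0.114 in Lgr6-negative libraries. Bmpr1a made up 50.0% and 60.2% of the length-corrected type I receptor counts in Lgr6-positive libraries, against 9.05% and 9.10% in Lgr6-negative libraries. Tgfbr1 made up 16.8% and 3.66% against 71.7% and 79.9%. The leading type I receptor thus differed between populations, and this pair, too, was picked after the counts had been seen. Of the type II receptors, Bmpr2 over Tgfbr2 per length was 1.21 and 2.34 in Lgr6-positive libraries, against 1.17 and 1.07 in Lgr6-negative libraries.

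Among 3 tested type II receptor genes, 0 passed, also at an unadjusted p under 0.05, in DESeq2 and in limma-voom. Over all genes tested, 9.06% were called, with 2404 of 11661 in DESeq2 and 1482 of 11661 in limma-voom. A count of 0 among 3 therefore says little about this class. Bmpr2, the BMP type II receptor, had 435 and 447 CPM in Lgr6-positive libraries, against 337 and 208 CPM in Lgr6-negative libraries (log2 fold change 0.69, standard error 0.39, adjusted p = 0.331). Tgfbr2, the TGF-β type II receptor, had 164 and 86.8 CPM against 132 and 88.3 CPM, with overlapping libraries and a log2 fold change of 0.19 (standard error 0.58, adjusted p = 0.902). That value was -0.35 without Lgr6-positive replicate 1. Acvr2a, a receptor for activins, varied most between replicates, with 646 and 58 counts in Lgr6-positive libraries against 68 and 208 in Lgr6-negative libraries (log2 fold change 0.86, standard error 1.27, adjusted p = 0.767). Its value was -1.70 without Lgr6-positive replicate 1, and exons of Orc4 overlap 7.8% of its exonic bases. Acvr2b had no counts in any library.

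**Figure D3:**
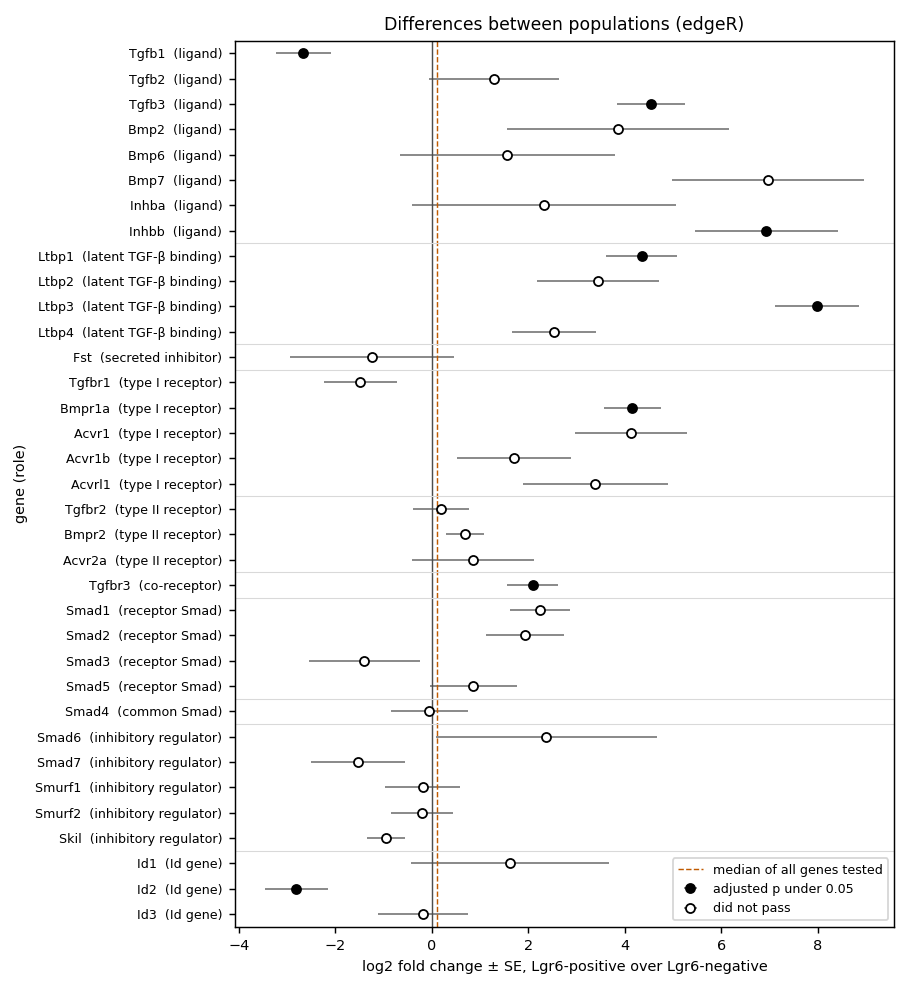
Log2 fold change of each tested gene (Lgr6-positive over Lgr6-negative) with its standard error, ordered by role, with filled circles for an adjusted p under 0.05. The 6 higher genes lie between 2.09 and 7.99 and the 2 lower ones at -2.66 and -2.81, and the dashed line marks the median of all genes tested, 0.10.

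No Smad gene was called, where 9.06% of all genes tested were, so few calls would be looked for among 7. Of these 7 tested Smad genes, 2 had an unadjusted p under 0.05, 1 was called in DESeq2 and 0 in limma-voom. Of all 11661 genes tested, DESeq2 called 2404 and limma-voom 1482. Smad1, a BMP-activated Smad, had 1204 and 1109 counts in Lgr6-positive libraries, against 200 and 164 in Lgr6-negative libraries. With 144 ± 5.03 CPM against 30.2 ± 1.45 CPM the replicates were close (log2 fold change 2.25, standard error 0.62, adjusted p = 0.0565), and it passed under 5 of 12 alternatives, within a range from 0.00282 to 0.158. Smad2, activated by TGF-β and activin, had 858 and 1173 counts in Lgr6-positive libraries, against 81 and 303 in Lgr6-negative libraries (log2 fold change 1.93, standard error 0.81, adjusted p = 0.178). It passed without Lgr6-negative replicate 2 (0.0415, log2 fold change 3.31).

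Smad3, which shares its activating receptors with Smad2, had a negative value. It had 233 and 39 counts in Lgr6-positive libraries, against 273 and 259 in Lgr6-negative libraries (log2 fold change -1.40, standard error 1.15, adjusted p = 0.534). The ratio of Smad2 to Smad3 per exonic length was 2.32 and 19.0 in Lgr6-positive libraries, against 0.187 and 0.738 in Lgr6-negative libraries, and did not overlap. Smad1 over Smad3 was 4.57 and 25.2 against 0.648 and 0.560, and these pairs were also picked after the counts had been seen. Smad3 made up 9.35% and 1.98% of the receptor Smad counts per length, against 44.9% and 31.3%.

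The remaining Smads gave no call. Smad5, activated by BMPs, had 866 and 277 counts in Lgr6-positive libraries, against 144 and 311 in Lgr6-negative libraries (log2 fold change 0.86, standard error 0.90, adjusted p = 0.644), and its value was -0.15 without Lgr6-positive replicate 1. The common partner Smad4 had 261 and 617 counts against 314 and 368 (log2 fold change -0.05, standard error 0.80, adjusted p = 0.984), with either sign over the alternatives. Smad6, an inhibitory Smad of BMP signalling, had 81 and 19 counts in Lgr6-positive libraries, against 15 and 0 in Lgr6-negative libraries (log2 fold change 2.37, standard error 2.29, adjusted p = 0.615). Smad7, the inhibitory Smad that TGF-β induces, had 170 and 119 counts in Lgr6-positive libraries, against 421 and 213 in Lgr6-negative libraries (log2 fold change -1.53, standard error 0.97, adjusted p = 0.398). Smad9 had 4 and 0 counts against 0 and 0 and was not tested.

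Other intracellular inhibitors did not pass either. Skil encodes SnoN, a repressor of Smad-driven transcription that is itself induced by TGF-β, and had 1510 and 2035 counts in Lgr6-positive libraries, against 3129 and 2073 in Lgr6-negative libraries. At 222 ± 51.4 CPM against 428 ± 84.6 CPM its libraries did not overlap after TMM scaling (log2 fold change -0.95, standard error 0.40, adjusted p = 0.171). That separation depends on the scaling, as the 2035 and 2073 counts of replicate 2 came from libraries of 6995568 and 7167465 counts. With scaling by library size alone the log2 fold change was -0.53. Smurf1 and Smurf2, ubiquitin ligases that act on Smads and receptors, had overlapping libraries. Smurf1 averaged 48.9 ± 4.33 CPM against 55.7 ± 16.3 CPM (log2 fold change -0.19, standard error 0.78, adjusted p = 0.933). Smurf2 averaged 73.4 ± 29.0 CPM against 84.6 ± 6.5 CPM (log2 fold change -0.20, standard error 0.65, adjusted p = 0.907). The sign of both changed with the scaling.

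Of the Id genes, which encode inhibitors of basic helix-loop-helix factors and respond to BMPs, Id2 was lower. It had 249 and 131 counts in Lgr6-positive libraries, against 1190 and 819 in Lgr6-negative libraries, or 23.6 ± 9.85 CPM against 166 ± 28.3 CPM. It fell by 2.81 on the log2 scale (standard error 0.65, adjusted p = 0.0310). The call did not hold without Lgr6-negative replicate 1 (0.0854) and with scaling by library size alone (0.0752), within a range from 4.06e-04. Id2 lies on chromosome 12 from 25093799 to 25097140 on the minus strand, and leukocytes also express it. The leukocyte markers summed to 2043 and 2509.8 CPM against 31239 and 36571 CPM in these libraries. Any gene lower in Lgr6-positive libraries shares this order, and a link to Id2 was not tested.

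Id3 did not follow Id2. It had 423 and 222 counts in Lgr6-positive libraries, against 156 and 372 in Lgr6-negative libraries (log2 fold change -0.18, standard error 0.93, adjusted p = 0.949), a value that was positive with scaling by library size alone (0.34). Whether the fold changes of Id2 and Id3 differ was not tested. Id1 had 76 and 8 counts against 3 and 16 (log2 fold change 1.63, standard error 2.05, adjusted p = 0.715), and Id4, with 6 and 1 counts against 1 and 4, was below the filter. Per length, Id3 led the family in Lgr6-positive libraries with 58.3% and 67.1%, against 15.1% and 37.2% in Lgr6-negative libraries. Id2 held 25.2% and 29.1% against 84.4% and 60.2%.

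**Figure D4:**
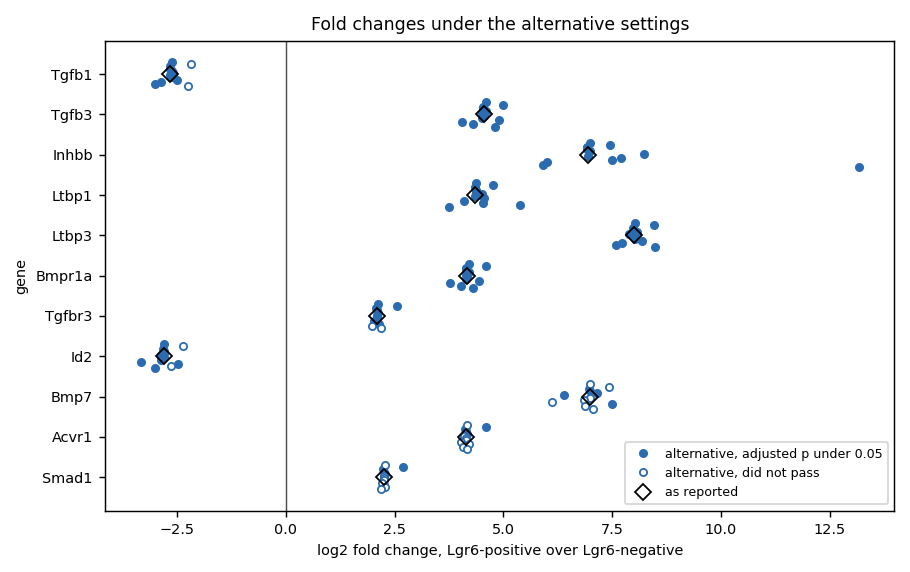
Log2 fold change of the 8 called genes and of Bmp7, Acvr1 and Smad1 as reported (diamonds) and under 12 alternative settings (circles, filled where the adjusted p was under 0.05). Tgfb3, Inhbb, Ltbp1, Ltbp3 and Bmpr1a passed in all 12, and Tgfb1, Tgfbr3 and Id2 in 10 of 12 each.

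A list of 65 other genes of the pathway was tested in the same fit. Of these, 38 passed the filter, 7 were higher, 3 were lower and 28 did not pass. Over all genes tested, 4.49% were higher and 4.57% lower, and this list was chosen with earlier results of these data known. Genes that release or anchor latent TGF-β went both ways. Thbs1, the gene of thrombospondin 1, which activates latent TGF-β, had 3214 and 3743 counts in Lgr6-positive libraries, against 10429 and 8523 in Lgr6-negative libraries. It fell by 1.86 on the log2 scale (standard error 0.28, adjusted p = 0.00523). Nrros, which anchors latent TGF-β1 on macrophage-lineage cells, had 569 and 700 counts against 2618 and 2049 (log2 fold change -2.29, standard error 0.43, adjusted p = 0.0139). Both were lower in the libraries with less Tgfb1 and fewer leukocyte marker counts. With no further population, every gene lower in Lgr6-positive libraries shares this order, and a link was not tested. Itgb8, a subunit of an integrin that activates TGF-β, had 114 and 527 counts in Lgr6-positive libraries, against 4 and 1 in Lgr6-negative libraries (log2 fold change 6.58, standard error 1.70, adjusted p = 0.0462). Without Lgr6-positive replicate 2 its adjusted p was 0.370, without Lgr6-negative replicate 2 0.0772, with the replicate block 0.0518 and in limma-voom 0.0516.

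Of 7 tested target genes, 6 had a positive log2 fold change and 1, Tgfbi, a negative one. Positive values made up 52.3% of all genes tested, and 30 of the 38 tested genes of this list, so the lean was not particular to the targets. Pmepa1, a target that dampens TGF-β signalling, had 1272 and 910 counts in Lgr6-positive libraries, against 106 and 22 in Lgr6-negative libraries (log2 fold change 3.72, standard error 0.89, adjusted p = 0.0352). Hey1, a target of Notch and of BMP in endothelium, had 1669 and 528 counts against 49 and 43 (log2 fold change 4.15, standard error 0.85, adjusted p = 0.0193). Tgfbi, named for its induction by TGF-β and also made by monocytes, was lower. It had 271 and 1528 counts in Lgr6-positive libraries, against 7003 and 6369 in Lgr6-negative libraries (log2 fold change -3.29, standard error 0.70, adjusted p = 0.0223). The call of Tgfbi held under all 12 alternatives, that of Pmepa1 was lost without Lgr6-negative replicate 2 (0.0538) and in limma-voom (0.0615), and that of Hey1 without Lgr6-positive replicate 1 (0.116) and in limma-voom (0.118). The log2 fold change of Tgfbi was -2.53 without Lgr6-positive replicate 1 and -5.09 without Lgr6-positive replicate 2.

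Further higher genes were a co-receptor, a secreted protein and a ubiquitin ligase. Eng encodes endoglin, an endothelial co-receptor of the TGF-β family, and had 1805 and 1907 counts in Lgr6-positive libraries, against 76 and 120 in Lgr6-negative libraries (log2 fold change 3.80, standard error 0.61, adjusted p = 0.00695). Fstl1, a follistatin-like protein that binds BMPs, had 484 and 1096 counts against 20 and 49 (log2 fold change 4.07, standard error 1.0, adjusted p = 0.0393). That call did not hold without Lgr6-positive replicate 2 (0.162), without Lgr6-negative replicate 1 (0.0545) and in limma-voom (0.108). Nedd4l, a ubiquitin ligase that limits activated Smad2 and Smad3, had 711 and 572 counts in Lgr6-positive libraries, against 44 and 39 in Lgr6-negative libraries. Its adjusted p of 0.0494 (log2 fold change 3.53, standard error 0.93) was just under the threshold and was lost under 5 of 12 alternatives, up to 0.106.

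Next in order of p-value came 5 genes that did not pass. Dcn, the matrix proteoglycan decorin that binds TGF-β, had 1787 and 908 counts in Lgr6-positive libraries, against 17 and 157 in Lgr6-negative libraries (adjusted p = 0.0747), and it passed under 5 of 12 alternatives, with the replicate block among them (0.00975). Ski, a co-repressor related to SnoN, had 1740 and 4193 counts against 880 and 453 (adjusted p = 0.0808). Atoh8, a BMP-responsive factor, had 53 and 20 counts against 0 and 0 (adjusted p = 0.124), Ctgf, a matrix-associated target of TGF-β, 797 and 116 against 19 and 46 (0.149), and Neo1, a receptor that interacts with BMP co-receptors, 714 and 613 against 167 and 35 (0.166). Of the 12 alternatives, Ski passed under 4, Ctgf under 2, and Neo1 and Atoh8 under 1 each. All 5 had non-overlapping libraries, with Lgr6-positive above Lgr6-negative, as did 30.0% of all genes tested.

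**Figure D5:**
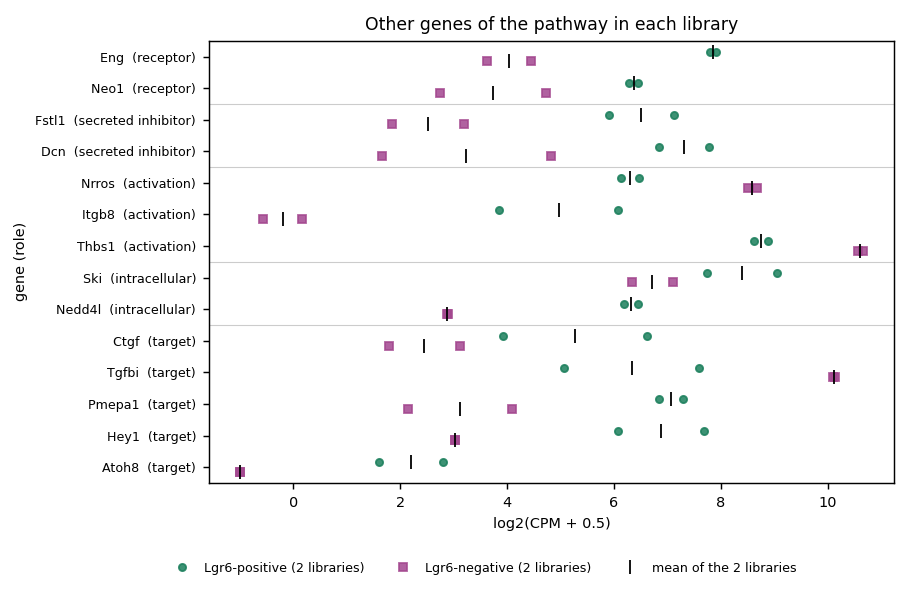
Level of 14 other genes of the pathway in each library, as log2(CPM + 0.5), with Lgr6-positive libraries as circles, Lgr6-negative libraries as squares and a bar at the mean of each pair. Squares lie to the right for Nrros, Thbs1 and Tgfbi, and Atoh8 has both squares at 0 counts.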

How the data were processed

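The deposited table holds expected counts, that is, estimated and not scaled for depth, with 1 column per library. The submitters' processing notes name RSEM 1.2.22, STAR 2.4.2a and the build mm10, and the sources used here give neither annotation nor strand setting. Values, of which 3.36% to 4.86% per library were fractional, were rounded. Counts were fitted with edgeR 4.0.16 (R 4.3.3): filterByExpr (minimum count 10, total 15), TMM factors (0.787 to 1.21), then glmQLFit and glmQLFTest (factor: population) over 11661 genes with a common dispersion of 0.795. An adjusted p under 0.05 was a call. CPM uses TMM-scaled library sizes, and standard errors (SE) were taken as |log2 fold change|/√F. DESeq2 1.42.0 and limma-voom (limma 3.58.1) were alternatives. Exonic lengths and positions came from GENCODE M21 (GRCm38, also called mm10), matched by symbol for all 44 genes. Promoters came from RefSeq (GRCm38.p6). At 2 libraries per population, amplified reads and no molecular identifiers, depth and replicates limit precision, and intervals and floors cover counting error only.

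Samples were grouped by their titles. The 44 genes and the lists of 65 other pathway genes and of cell type markers were chosen with earlier results of these data known. All 44 are accounted for, and of the other pathway genes those past the threshold and the 5 with the next smallest p-values are named, except 1 gene that is not reported here.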

Additional observations from a re-analysis of the deposited data

How the results depend on the processing

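The 12 alternatives changed the scaling (2), filter (2), test (3), replicate block (1) or left out a library (4). Each changed 1 choice, except the DESeq2 test, which also brings its own size factors. The number of genes tested was 11661 as reported and in DESeq2. It was 15897 with no filter, 10182 with a stricter filter and 12543 to 13193 with a library left out. Counts of called genes under these settings therefore refer to sets of different size and cannot be read as shares. Of all genes tested, 1057 were called as reported, 1821 with no filter, 1707 with a stricter filter (20 counts in both libraries of a population), 2404 in DESeq2 and 1218 to 1986 with a library left out. Among the 35 genes, 6 higher and 2 lower became 12 and 2 in DESeq2, 8 and 0 with library-size scaling, and 5 to 9 higher and 1 to 3 lower with a library left out, where a lone library is assumed to vary like the other population. Under 9 of the 12 alternatives all 8 calls held. The median log2 fold change was 2.10 with library-size scaling. It was 1.02 to 2.0 with a library left out, where 35 or 37 genes passed the filter and the set of genes changed. Of the other pathway genes, 7 higher became 12 in DESeq2, 2 in limma-voom and 6 to 8 with a library left out.

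Signs that turned were those of uncalled genes. With library-size scaling the log2 fold change of Smad4 was 0.39, of Smurf1 0.29, of Smurf2 0.26 and of Id3 0.34. With 1 library left out the values ran from -2.18 to 2.01 for Fst, -0.35 to 0.55 for Tgfbr2, -1.70 to 2.0 for Acvr2a, -0.15 to 1.63 for Smad5, -0.86 to 0.45 for Smad4, -0.47 to 0.13 for Smurf1, -0.68 to 0.12 for Smurf2, -0.70 to 3.39 for Id1 and -0.74 to 0.69 for Id3. The cause was not tested.

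The populations share replicate numbers, which the labels do not tie to an animal or day. Deviations of same-numbered libraries correlated at -0.0202. With the replicate block 1340 genes were called, 6 and 2 of the 35 and 6 and 3 of the other pathway genes, with Itgb8 and Nedd4l not passing and Dcn passing. Genes with few counts, such as the BMP ligands, are limited by depth.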
